A study of Oryza sativa with 4 samples.

Results

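Cytochrome P450 enzymes are heme monooxygenases that insert an oxygen atom into small molecules. Most plant P450s sit on the endoplasmic reticulum and take electrons from NADPH-cytochrome P450 reductase, with cytochrome b5 as a second donor for some of them. In plants they make sterols, brassinosteroids, gibberellins, lignin precursors, flavonoids, and the fatty acid monomers of cutin and suberin, and they also take part in detoxification and defence. Shoots of wild-type rice plants 2 weeks old were held in water at 42 °C (the heat treatment) or at 22 °C (the control) for 10 min, with the pots turned upside down. Ribosome footprints, the stretches of mRNA that ribosomes protect from nuclease, were sequenced in 4 libraries, 2 per temperature, each from 10 shoots. Both groups share the inversion and the immersion, whose own effect therefore cannot be told apart here.

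The P450 loci were taken by description: a locus counted when a transcript of it was described with "cytochrome P450" or a CYP number and that description did not name a reductase. This gave 49 of 10455 loci, with 59 of the 14122 deposited transcripts. Each transcript has 1 deposited score at 42 °C and 1 at 22 °C, and no value per library. The score is taken as translational efficiency, footprints relative to RNA, from the stated aim of the libraries, because no header defines it. Scores were averaged over the transcripts of a locus. No replicate spread, test or p-value exists for any difference below, the read depth is unknown, and a locus is called higher or lower only by size, at 2-fold or more. Neither footprints nor RNA levels are listed by themselves, so a lower score at 42 °C can come with fewer footprints or with more RNA. Light-harvesting proteins, a mark of green shoot tissue, had 15 of 15 loci above 0 at both temperatures, with a median score of 0.253 at 42 °C and 0.298 at 22 °C. For the Rubisco small subunit these were 5 of 5 loci, 0.505 at 42 °C and 0.327 at 22 °C. Of all 10455 loci 9280 were above 0 at both temperatures, so these counts say little about the tissue.

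Among P450 loci above 0 at both temperatures, 28 had higher and 18 lower scores at 42 °C, beside 4740 and 4540 over all loci. The surplus of 2-fold calls over the background lay mostly at low scores. Of the 46 P450 loci above 0 at both temperatures, 15 (32.6%) were higher at 42 °C by 2-fold or more, 9 (19.6%) were lower by as much, and 22 lay within 2-fold. Over all 9280 loci with such scores 16.1% passed 2-fold upward at 42 °C, 21.6% downward, and 37.7% in either direction, against 52.2% of the P450 loci. The share of lower loci was thus near the background, and the share of higher loci was above it. Their median log2 ratio of 42 over 22 °C was 0.58, with quartiles of -0.37 and 1.41, beside 0.03, -0.83 and 0.67 over all loci. Over the 7 P450 loci with a mean score of at least 0.2 the median turned to -0.18. Loci with a mean score of at least 0.2 had a median of 0.27, and after centring on it 13 P450 loci were higher and 9 lower, 47.8% in either direction, against 11.6% higher, 27.1% lower and 38.7% in either direction of all loci. Of the other 3 P450 loci, 2 were listed at 0 at 42 °C alone and 1 at both temperatures, and with the first of these placed at the low end of the ranks the median over 48 loci was 0.43, beside -0.01 over all loci above 0 at 1 or both temperatures.

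**Figure D1:**
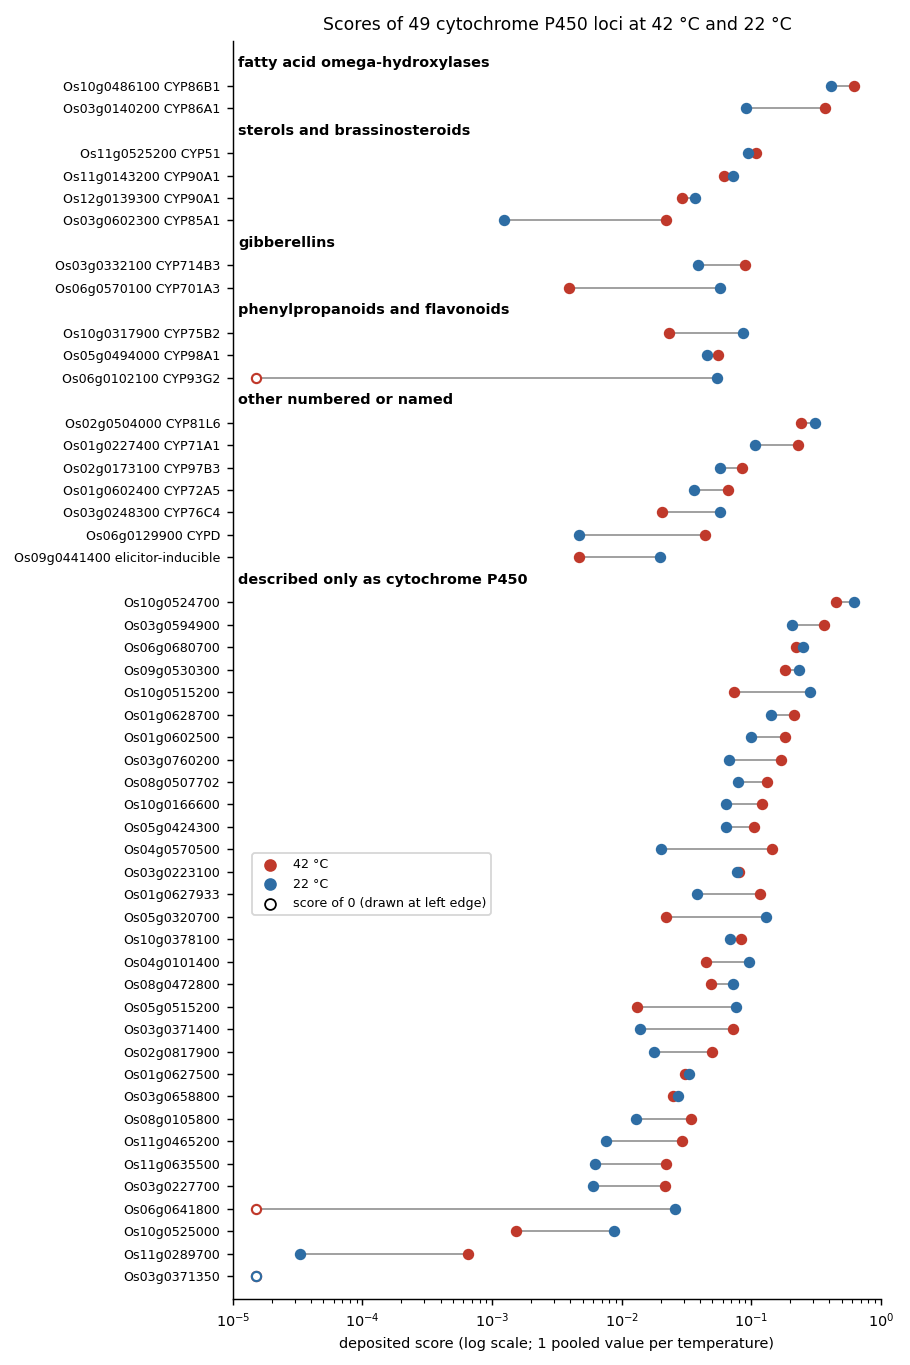
Deposited scores (log scale) of the 49 P450 loci at 42 °C (red) and 22 °C (blue), grouped by role and sorted by mean score, each point the authors' pooled value; open points are scores of 0. The 2 CYP86 loci lie higher at 42 °C, while ent-kaurene oxidase (CYP701A3) lies lower, with a very low 42 °C score. Flavanone 2-hydroxylase (CYP93G2) is listed at 0 at 42 °C and drawn at the left edge, so the length of its line has no meaning.

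The CYP86 family hydroxylates the end carbon of fatty acids, a step in making cutin and suberin in Arabidopsis, and both of its loci had higher scores at 42 °C. Os03g0140200, described as CYP86A1 and a fatty acid omega-hydroxylase, had 0.368 at 42 °C and 0.0904 at 22 °C, 4.07-fold higher. Os10g0486100, described as CYP86B1, had 0.620 at 42 °C and 0.413 at 22 °C, a log2 ratio of 0.58 and so within 2-fold. Other loci of its level, with mean scores from 0.483 up, had a median log2 ratio of 0.29 and an upper quartile of 0.61. Among all P450 loci these gave the largest gains in score itself, 0.278 and 0.206. Os03g0140200 was also the single called locus among the 6 P450 loci with a mean score at or above 0.224, the 75th percentile of all loci. At that level 18.3% of all loci were past 2-fold.

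Sterol and brassinosteroid enzymes were mostly flat, with 1 exception of very low score. Os11g0525200, described as CYP51, the obtusifoliol 14-alpha demethylase of sterol synthesis, had 0.109 at 42 °C and 0.0937 at 22 °C. Its transcripts differed in direction: 1 had 0.0973 at 42 °C and 0.0605 at 22 °C, the other 0.121 at 42 °C and 0.127 at 22 °C. Both loci described as CYP90A1, in Arabidopsis a brassinosteroid enzyme (CPD), were slightly lower at 42 °C. Os11g0143200 had 0.0610 at 42 °C and 0.0718 at 22 °C, and Os12g0139300 had 0.0292 at 42 °C and 0.0369 at 22 °C. They share a description, and how the authors assigned reads that fit 2 similar loci is not given in the sources used here. Os03g0602300 (CYP85A1, DWARF), the C6-oxidase that forms active brassinosteroids, had 0.0220 at 42 °C and 0.00123 at 22 °C. Its 18.0-fold ratio (log2 4.17) rests on a 22 °C score in the lowest part of the table, and with 0.1 added to every score the log2 ratio was 0.27.

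The gibberellin pair differed in direction. Os06g0570100, described as ent-kaurene oxidase (CYP701A3), which carries out an early oxidation in gibberellin synthesis, had 0.00393 at 42 °C and 0.0572 at 22 °C, 14.5-fold lower and the most negative log2 ratio of all P450 loci (-3.86). That ratio rests on a very low 42 °C score, and with 0.1 added to every score it was -0.60. Os03g0332100, described as similar to CYP714B3, of a family that in rice modifies gibberellins, had 0.0894 at 42 °C and 0.0386 at 22 °C, 2.32-fold higher. Centring on loci with a mean of at least 0.2 set its log2 ratio to 0.95, under 2-fold. The list of other gibberellin enzymes had only 2 loci, both higher at 42 °C and within 2-fold: a kaurene synthase A with 0.123 at 42 °C and 0.0863 at 22 °C (Os02g0278700), and gibberellin 20 oxidase 2 with 0.338 at 42 °C and 0.173 at 22 °C (Os08g0249900).

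Both loci described as P450s of flavonoid synthesis had lower scores at 42 °C. So did 23 of 33 loci on the word list for other phenylpropanoid and flavonoid enzymes, beside 4540 of 9280 over all loci. Of these 23, 9 were loci of phenylalanine ammonia-lyase. Os06g0102100 (CYP93G2), the flavanone 2-hydroxylase that starts the branch to C-glycosylflavones, was listed at 0 at 42 °C and had 0.0547 at 22 °C. With 0.1 added to every score its log2 ratio was -0.63, within 2-fold. Os10g0317900, described as flavonoid 3'-hydroxylase (CYP75B2), which adds a hydroxyl group to the B ring, had 0.0233 at 42 °C and 0.0860 at 22 °C, 3.69-fold lower. Its 2 transcripts were both lower, at log2 ratios of -2.46 and -0.82. Os05g0494000, described as CYP98A1, of the family that hydroxylates coumaroyl esters on the way to lignin in Arabidopsis, differed little: 0.0550 at 42 °C and 0.0452 at 22 °C.

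Of 33 other phenylpropanoid and flavonoid loci, all above 0 at both temperatures, 23 had lower scores at 42 °C, 15 of them by 2-fold or more, and 2 were called higher, with a median log2 ratio of -0.59. These calls are 45.5% lower and 6.06% higher, beside 21.6% and 16.1% over all loci. The word list also takes in loci described only as chalcone isomerase domain containing or 4-coumarate-CoA ligase-like, whose place in the pathway is not shown. Chalcone synthase (Os11g0530600), the entry enzyme of flavonoid synthesis, had 0.0137 at 42 °C and 0.525 at 22 °C. Phenylalanine ammonia-lyase, the entry enzyme of the whole pathway, had lower scores at all 9 of its loci, 7 of them (77.8%) by 2-fold or more, beside 21.6% of all loci. Among these, Os12g0461300 had 2.34 at 42 °C and 2.63 at 22 °C, and Os04g0518100 had 0.00115 at 42 °C and 0.230 at 22 °C. The C-glucosyltransferase Os06g0288300, described by its role in flavone-C-glycoside synthesis, the pathway of CYP93G2, had 0.0889 at 42 °C and 0.427 at 22 °C. These example loci were picked after their scores were seen. Ammonia-lyase copies are alike, and reads may be divided between them. Not every flavonoid hydroxylase was lower: 2 loci described as flavonoid 3-monooxygenase without the word P450, Os02g0503100 (0.120 at 42 °C, 0.0562 at 22 °C) and Os08g0547900 (0.110 at 42 °C, 0.0729 at 22 °C), had higher scores at 42 °C.

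Loci described as similar to members of the large families of specialised and detoxifying P450s, CYP71, CYP72, CYP76 and CYP81, went both ways. Their CYP names here are those of the descriptions. Os01g0227400 (CYP71A1) had 0.229 at 42 °C and 0.106 at 22 °C, 2.16-fold higher, which centring on loci with a mean of at least 0.2 brought to a log2 ratio of 0.85. Os01g0602400 (CYP72A5) had 0.0665 at 42 °C and 0.0361 at 22 °C, 1.84-fold higher. Os03g0248300 (CYP76C4) had 0.0204 at 42 °C and 0.0578 at 22 °C, 2.83-fold lower. Os02g0504000 (CYP81L6), a well scored member, was within 2-fold, at 0.242 at 42 °C and 0.312 at 22 °C. The locus described as elicitor-inducible, Os09g0441400, had 0.00468 at 42 °C and 0.0198 at 22 °C, 4.24-fold lower. Os06g0129900, described as CYPD, had 0.0439 at 42 °C and 0.00466 at 22 °C, 9.41-fold higher, and its 2 transcripts had log2 ratios of 3.74 and 3.10. With 0.1 added to every score, Os09g0441400 had a log2 ratio of -0.19 and Os06g0129900 one of 0.46. Os02g0173100 is described as CYP97B3, of a family that holds carotenoid hydroxylases in Arabidopsis. It had 0.0851 at 42 °C and 0.0573 at 22 °C. Of its 4 transcripts, 3 were higher at 42 °C, by log2 ratios of 0.04 to 0.78, and the one that carries the CYP97B3 description had -0.08.

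The other 31 loci are described only as cytochrome P450, and no function can be given to them from the table. Of the 29 above 0 at both temperatures, 10 (34.5%) were called higher at 42 °C and 5 (17.2%) lower, beside 16.1% and 21.6% over all loci. The highest scored, Os10g0524700, had 0.451 at 42 °C and 0.615 at 22 °C. Also within 2-fold were Os03g0594900, with 0.363 at 42 °C and 0.207 at 22 °C, and Os06g0680700, with 0.221 at 42 °C and 0.251 at 22 °C. All of these well scored loci thus lay within 2-fold, 1 higher and 2 lower at 42 °C.

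Past 2-fold with a mean score at or above the median of all loci were 3 of the loci with no further description. Os04g0570500 had 0.146 at 42 °C and 0.0201 at 22 °C, 7.25-fold higher, and Os03g0760200 had 0.169 at 42 °C and 0.0670 at 22 °C, 2.53-fold higher. Os10g0515200 had 0.0733 at 42 °C and 0.285 at 22 °C, 3.88-fold lower, and gave the largest loss of score itself among P450 loci, -0.211. With 0.1 added to every score, which damps ratios of low scores, the P450 loci still past 2-fold were Os03g0140200 and Os04g0570500, both higher at 42 °C, and Os10g0515200, lower. The remaining 25 loci of this kind hold 8 higher, 4 lower and 11 within 2-fold, with mean scores up to 0.206. The 8 higher ones spanned log2 ratios of 1.43 to 4.30 and the 4 lower ones -2.58 to -1.12. Os06g0641800 was listed at 0 at 42 °C and had 0.0259 at 22 °C, and Os03g0371350 was listed at 0 at both temperatures, both named after their scores were seen.

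The largest positive ratio of any P450 locus came from very low scores. Os11g0289700, named after its scores were seen, had 0.000649 at 42 °C and 3.3e-05 at 22 °C, a log2 ratio of 4.30 that became 0.01 with 0.1 added. Nearest to the 2-fold line were Os10g0166600, within it at 1.90-fold higher (0.122 at 42 °C, 0.0640 at 22 °C), and Os01g0227400, outside it. On the lower side Os04g0101400 was just outside, at 2.17-fold lower (0.0444 at 42 °C, 0.0964 at 22 °C). Both loci next to the line were named for that.

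The spread of ratios narrowed steadily with the level of the score. When the 9280 loci were cut into 10 bins of equal size by mean score, the interquartile range of the log2 ratio among loci other than P450s was 3.45 in the lowest bin and 0.66 in the highest, and the share past 2-fold was 70.9% and 11.7%. The median of these loci also moved, from -0.68 in the lowest bin to 0.29 in the highest, so that low scores tended to be lower still at 42 °C. The mean score is made of the same 2 values as the ratio, so this is a description of the table.

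**Figure D2:**
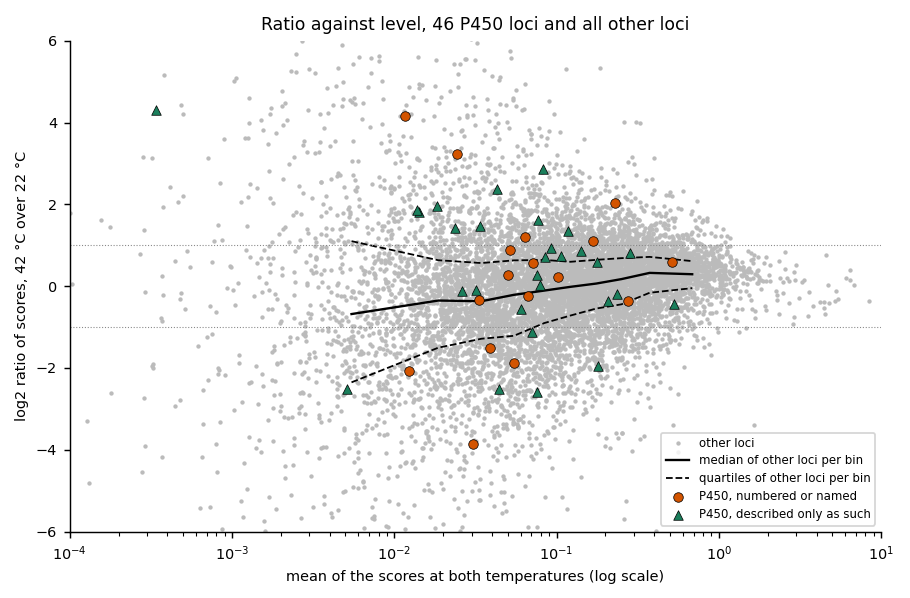
Log2 ratio of the scores, 42 over 22 °C, against the mean of both scores (log scale), for 46 P450 loci (coloured) and the other loci above 0 at both temperatures (grey; 134 lie beyond a log2 ratio of 6 either way and 4 left of the axis). Lines give the median and quartiles of the other loci in 10 bins, and dotted lines mark 2-fold; P450 loci fan out toward low scores as the other loci do.

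P450 loci followed that spread, and sat low in the table. Whether scores are scaled for transcript length is not stated, so levels of different loci are compared only as places in the table. Their median mean score was 0.0640, beside 0.0795 over all loci, and 32 of 49 lay below the latter value. In bins 8 to 10, with mean scores above 0.209, 1 of 6 P450 loci (16.7%) was past 2-fold, near the 18.8% of the other loci. In bins 4 to 7 these were 10 of 24 (41.7%), 5 higher and 5 lower, against 36.4%. In bins 1 to 3, with mean scores up to 0.0440, 13 of 16 (81.25%) were past 2-fold against 58.1%, with 9 of the 16 (56.25%) called higher at 42 °C, against 21.3% of the other loci. Called lower were 25% of P450 loci in bins 1 to 3, against 36.7% of the other loci. In bins 4 to 7 these were 20.8% against 21.0%, and in bins 8 to 10 0% against 7.24%. The surplus of higher calls among P450 loci thus lay mostly in the bins where ratios spread most.

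**Figure D3:**
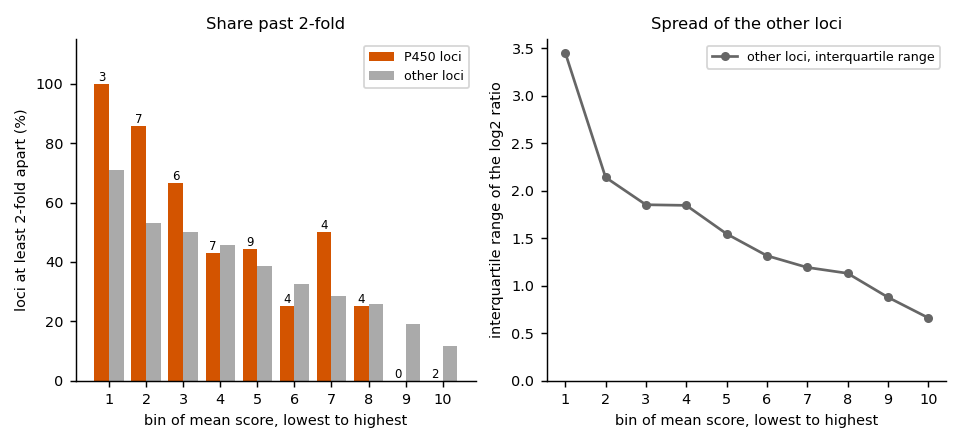
Left, share of loci at least 2-fold apart in each of 10 bins of mean score for P450 loci (orange, number of loci above each bar) and other loci (grey); right, interquartile range of the log2 ratio of the other loci. Both fall with level, and no bin holds more than 9 P450 loci.

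Set against the median of the other loci of the same bin, 31 of the 46 P450 loci were above it and 15 below, by a median log2 difference of 0.51. By level the picture was mixed. Below the 25th percentile the 7 P450 loci were all past 2-fold, 5 higher and 2 lower at 42 °C, with a median log2 ratio of 1.85, beside -0.53 for other loci. Between the 25th percentile and the median 22 P450 loci split evenly, 11 higher and 11 lower, with 6 past 2-fold each way and a median of -0.04, beside -0.26. Of 11 P450 loci between the median and the 75th percentile of mean score, 9 had higher scores at 42 °C, 3 of them by 2-fold or more, 1 of the others was called lower, and their median log2 ratio was 0.74, beside 0.02 for other loci of that range. At or above the 75th percentile the 6 P450 loci had a median of 0.20, beside 0.28. That value is not firm in sign: with Os09g0530300 (0.180 at 42 °C, 0.233 at 22 °C), the next locus down, the 7 loci gave -0.18. No p-value belongs to these counts, since the loci are not replicates and each temperature has 1 value.

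Transcripts of the same locus give a second view of how firm a ratio is, although they come from the same pooled libraries, may share reads and are not replicates. Of the 7 P450 loci with more than 1 transcript, 6 had at least 2 transcripts above 0 at both temperatures. The largest and smallest log2 ratio within such a locus lay a median of 0.96 apart, and in 3 of the 6 they had opposite signs. Among other loci the median gap was 0.65, with 1.31 for loci below the median level and 0.26 for loci at or above the 75th percentile. Signs were opposite in 27.5% of these other loci, 36.6% below the median level and 15.2% at or above the 75th percentile. The widest gap of a P450 locus was that of Os11g0465200, named for it. Its transcript described as P450 had 0.0217 at 42 °C and 0.000776 at 22 °C, and the other, described as like Bx2 (in maize a P450 of benzoxazinoid synthesis), had 0.0367 at 42 °C and 0.0142 at 22 °C.

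By their locus numbers, whose first digits give the chromosome in the rice naming scheme, the P450 loci lie on 11 chromosomes, with 1 to 11 on each. Chromosome 3 holds 11 loci, 6 called higher at 42 °C and 1 lower, chromosome 10 holds 7, 0 higher and 3 lower, and chromosome 1 holds 6, 2 higher and 0 lower. Chromosomes 6 and 11 hold 5 each, 1 higher and 1 lower on the one, and 3 higher and 0 lower on the other. The shares over all P450 loci are 32.6% higher and 19.6% lower, no difference between chromosomes was tested, and these counts were made after the scores were seen. P450 genes often stand in tandem arrays, and 9 loci formed 4 groups with numbers at most 1000 apart. Neighbours Os01g0602400 and Os01g0602500 had nearly the same log2 ratio, 0.88 and 0.87. In the group of Os01g0627500, Os01g0627933 and Os01g0628700 the log2 ratios were -0.11, 1.61 and 0.59, and Os10g0524700 and Os10g0525000 had -0.45 and -2.52. Os03g0371400, beside the locus listed at 0 at both temperatures, had 0.0717 at 42 °C and 0.0138 at 22 °C.

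The reductases that feed electrons to P450s were flat. Os04g0653400 had 0.229 at 42 °C and 0.224 at 22 °C, and Os08g0243500 had 0.0368 at 42 °C and 0.0443 at 22 °C, the mean of 2 transcripts. The word list for cytochrome b5 had 10 loci above 0 at both temperatures, 2 (20.0%) called higher and 3 (30.0%) lower, beside 16.1% and 21.6% over all loci, with a median log2 ratio of 0.38. It also takes in cytochrome b561 and b5 reductase loci, which are other proteins. Os05g0108800, described plainly as cytochrome b5, had 0.184 at 42 °C and 0.135 at 22 °C, while Os01g0971500, described as similar to it, had 0.00206 at 42 °C and 0.159 at 22 °C.

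**Figure D4:**
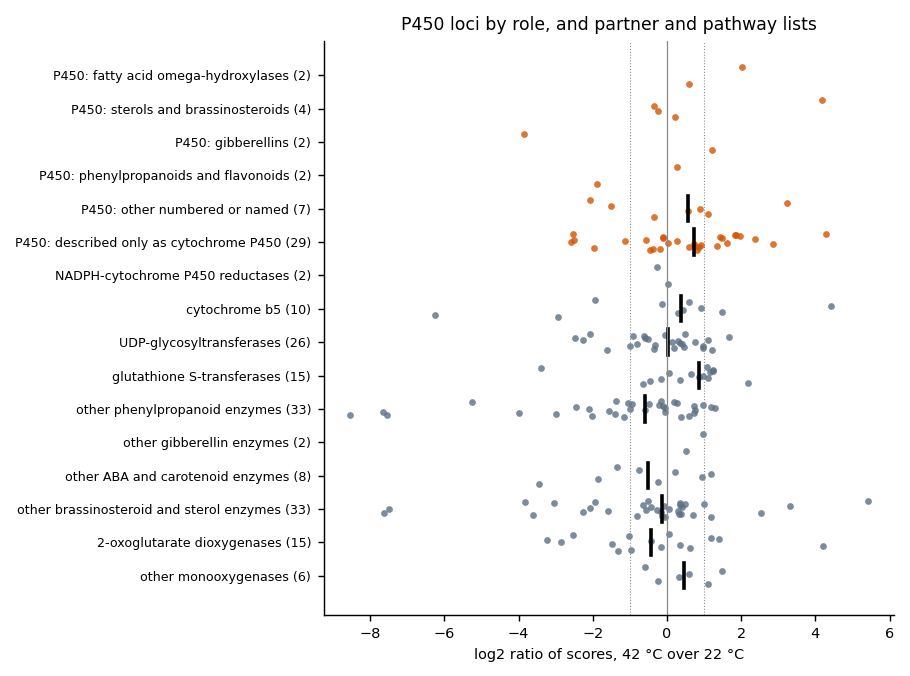
Log2 ratio of scores, 42 over 22 °C, for each P450 locus by role (orange) and for the loci of each partner or pathway list (grey-blue), with the number of loci above 0 at both temperatures in parentheses; black bars are medians of sets of 5 or more and dotted lines mark 2-fold. Glutathione S-transferases and P450s described only as such have medians of 0.87 and 0.72, and other phenylpropanoid enzymes one of -0.59.

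Enzymes that conjugate the products of P450s did not share 1 direction. Glutathione S-transferases, which join toxic compounds to glutathione, had 6 of 15 loci called higher at 42 °C and 1 lower, with a median log2 ratio of 0.87. UDP-glycosyltransferases, which add sugars, had 3 of 26 higher and 5 lower, with a median of 0.04. Their word list also takes in loci described as sucrose-phosphate synthase (Os01g0919400) and sucrose synthase metabolism (Os03g0401300). Of other oxygenases, those dependent on 2-oxoglutarate had 3 of 15 higher and 6 lower (median -0.42), and the 6 other monooxygenases 2 higher and 0 lower (median 0.46). Among these 6 are Os02g0503100, called higher, and Os08g0547900, both described as flavonoid 3-monooxygenase. A transcript of Os10g0317900, the locus described as similar to CYP75B2, is called flavonoid 3-monooxygenase too. Os02g0503100 and Os08g0547900 may therefore be P450s. Other enzymes of carotenoid and abscisic acid synthesis had 1 of 8 higher and 3 lower (median -0.50). The word list around sterols and brassinosteroids had 4 of 33 higher and 9 lower (median -0.14), but many of its loci are receptor kinases, acyltransferases or binding proteins. All these shares stand beside the same background of 16.1% higher and 21.6% lower.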

How the data were processed

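The submitters' processing notes name cutadapt and Bowtie2. Their versions, the genome build, the annotation and the handling of reads that fit several loci were not given in the sources used here. Deposited score columns carry only a temperature, per the file headers, and no formula, log step or scaling; the 2 libraries of a temperature are pooled into 1 score. The deposited difference equals the score at 42 °C minus that at 22 °C within 1e-05 in all 14122 transcripts. Scores were averaged over the transcripts of a locus. Log2 ratios were taken where both were above 0 and called at 2-fold. The call and bin functions were tested on simulated data. Members and word lists were chosen with earlier results of these data known. Named loci are the 6 with a mean score at or above the 75th percentile of loci, up to 5 per direction past 2-fold at or above the median, and 18 described by a CYP number, enzyme or inducer; others are marked or given by count. The reference gene table named 0 of the 49 loci, and no sequences were used here. Tools were Python 3.11.15, numpy 2.4.6, pandas 2.3.3 and matplotlib 3.10.9. Alternatives covered minimum scores, transcript choice, added constants, centring, thresholds and the member rule. No expression test was fitted, since there is 1 value per temperature.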

Additional observations from a re-analysis of the deposited data

How the results depend on the processing

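No paired analysis was possible because the table holds 1 pooled score per temperature, and for the same reason no library could be left out. Of the 46 P450 loci, 15 were called higher and 9 lower. These became 6 and 4 of 29 for mean scores from 0.05 up, 1 and 0 of 7 for means from 0.2 up, and 2 and 1 of 49 with 0.1 added to every score. They were 4 and 3 among 15 loci with a CYP family number, and 2 and 2 among 7 loci with more than 1 transcript. Fewer loci enter these settings, except the added constant. The median log2 ratio of 0.58 turned to -0.18 over the 7 loci with a mean of at least 0.2, and lay between 0.11 and 0.64 under the other settings tried. No member was of another kind by description. Settings added after the data were seen (matching transcripts alone, centring within a bin of level, neighbouring loci counted as 1) gave 14 to 17 higher and 8 or 9 lower. Over all loci, 1495 higher and 2002 lower became 866 and 897 with a minimum mean of 0.05, 337 and 218 with one of 0.2, 255 and 273 with 0.1 added, and 761 and 1253 at 3-fold, and 2580 were higher at 1.5-fold. Centring on loci with a mean of at least 0.2 moved the higher share of all calls to 30.04%, against 42.8% without it; for P450 loci these were 59.1% and 62.5%. In the partner and pathway lists together, 23 loci were higher and 41 lower. These were 14 and 22 at 0.05, 4 and 8 at 0.2, and 1 and 12 with 0.1 added, while the higher ones numbered 36 by transcript, 11 with centring on a mean of at least 0.2, 42 at 1.5-fold and 7 at 3-fold. The share of loci past 2-fold in the lowest bin was 6.10 times that in the highest, 4.05 times with 5 bins and 0 times with 0.01 added, since the lowest bin then holds loci whose scores are far below the constant. The depth is unknown, so no limit of detection can be given for scores of 0.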

Other observations

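Some enzymes known to be P450s are described without that word and so are not among the 49 loci. A search by enzyme name, made after the scores were seen, found a hydroperoxide lyase, of the CYP74 family that cleaves fatty acid hydroperoxides (Os02g0110200), with 0.0645 at 42 °C and 0.0893 at 22 °C. It also found an abscisic acid 8'-hydroxylase, of the CYP707 family that breaks down this hormone (Os02g0703600), with 0.0447 at 42 °C and 0.0666 at 22 °C. Both were lower at 42 °C and within 2-fold. The names searched did not cover flavonoid 3-monooxygenase, and other P450s may be missed as well. The loci with that description, Os02g0503100 and Os08g0547900, were higher at 42 °C, with log2 ratios of 1.09 and 0.60.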
